A study of Homo sapiens with 22 samples.

Results

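The mitochondrial ribosomal protein genes were followed across 22 RNA-seq libraries of H1299, an established human cell line from a non-small cell lung carcinoma. They were taken from the count table by name, as protein-coding genes whose symbol starts with MRPL or MRPS and a digit, with pseudogenes left out. This gave 76 of the 37908 genes in the table. Of these, 30 encode large-subunit proteins that have a homologue in bacteria and 20 encode large-subunit proteins specific to mitochondria. A further 15 encode small-subunit proteins with a bacterial homologue and 10 encode small-subunit proteins specific to mitochondria. The remaining gene, MRPS36, encodes a protein now counted as part of the 2-oxoglutarate dehydrogenase complex. MRPS30 and MRPS18A keep their small-subunit names but sit in the large subunit, and they were grouped there. MRPL45 and MRPS21 were not analysed here.

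Mitochondria have a ribosome of their own, the mitoribosome, which translates the few proteins encoded in mitochondrial DNA (mtDNA), all of them subunits of the respiratory chain and ATP synthase. Its RNAs come from mtDNA, whereas its proteins are encoded by nuclear genes, made in the cytosol and imported. The mitoribosome descends from that of a bacterium, and doxycycline (DOX), an antibiotic that binds the bacterial small subunit, also inhibits mitochondrial translation.

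The cells carried a DOX-inducible short hairpin RNA (shRNA) against BRCA2, a homologous recombination factor. Cultures without DOX are called BRCA2-proficient. Those kept for 3 days in DOX at 2 µg/mL are called BRCA2-deficient, so DOX and BRCA2 depletion always came together. Without libraries that had DOX alone, their effects cannot be told apart. Both kinds of culture were transfected with a control siRNA or an siRNA against β-catenin (siβ-catenin, gene CTNNB1), and were left without or given 250 nM LY2090314 for 24 hours. LY2090314 inhibits GSK3, the kinase that marks β-catenin for degradation, and is called GSK3i below. The design has 8 groups, with 3 libraries in each except for BRCA2-proficient cells without GSK3i, where both siRNA groups have 2 libraries, labelled replicates 2 and 3.

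Each library held 18938266 to 29280122 counts. BRCA2, the targeted gene, had 514 to 1111 normalised counts in the 10 libraries without DOX and 71.4 to 225 in the 12 libraries with DOX. CTNNB1 had 5206 to 8669 normalised counts with the control siRNA and 977 to 2217 with siβ-catenin. The epithelial keratins KRT8 and KRT18 and the mesenchymal filament VIM were present in every library, and the leukocyte gene PTPRC reached at most 1.57 normalised counts. AXIN2, a target of β-catenin, had 117 to 1747 normalised counts in the GSK3i libraries and 59.5 to 96.9 in the others, leaving out 3 libraries described next. In 3 libraries, genes that differed strongly with GSK3i went against the label. The genes used were PDCD4, a translation inhibitor, and YPEL2, and they were picked from these same data. In the other 11 libraries labelled with GSK3i, PDCD4 had 105 to 163 normalised counts, and in the other 8 without it had 1291 to 1920.4. The library labelled proficient GSK3i with siβ-catenin replicate 2 had 1998. The libraries labelled proficient siβ-catenin without GSK3i had 291 in replicate 2 and 1056 in replicate 3. YPEL2 stood at 304, 35.3 and 126 in these libraries, against 9.02 to 44.3 with and 232 to 368 without GSK3i elsewhere. AXIN2 stood at 73.1, 67.2 and 65 in them, each within the range of the other libraries without GSK3i. By AXIN2, only the first of the 3 went against its label. The libraries were kept in their labelled groups. None of them entered the comparisons of GSK3i with no GSK3i under the control siRNA, or any comparison within BRCA2-deficient cells.

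Levels of the members varied over 2 orders of magnitude. In CPM, counts scaled by the library's total count, per kilobase of exon, the 75 members that could be tested ranged from 1.13 to 128 with a median of 19.1, and 56 of them were at 10 or more. The class medians on this scale were 22.9 for large-subunit proteins with a bacterial homologue, 17.3 for large-subunit proteins specific to mitochondria, 20.6 for small-subunit proteins with a bacterial homologue and 11.4 for small-subunit proteins specific to mitochondria. The highest were MRPL41 at 128 CPM per kilobase, MRPS34 at 114, MRPL51 at 101, MRPS12 at 100 and MRPS35 at 95.2. The lowest were MRPS18C at 4.43, MRPS24 at 1.34, MRPL38 at 1.33, MRPL46 at 1.13 and MRPL30 at 0.0117. MRPL30 had a mean of 1.3 normalised counts and was the member not tested. Its exons overlap 2 other genes on the same strand. In all, 37 members overlap an exon of another gene on one strand or the other, and 23 have a processed or other pseudogene in the table, with which reads could be confused. The 3 paralogues of the bacterial S18 protein, which take up different positions in the mitoribosome, stood at 17.5 for MRPS18A, 70.4 for MRPS18B and 4.43 for MRPS18C.

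Summed over all members, GSK3i libraries held more mitoribosomal transcripts than the others. The 11 libraries labelled with GSK3i that had no sign against their label held 4719 to 6543 CPM, with a median of 5369. The 8 such libraries without GSK3i held 3813 to 4912, with a median of 4245. The ranges overlapped through the highest untreated and the lowest treated libraries, which came from different groups. The 3 libraries with a doubtful label lay between these medians, at 4527 to 4864. In bulk libraries, a change in the share of cells that express a gene and a change in RNA per cell cannot be told apart. Within groups the replicates also differed. Replicate 1 was the highest in 6 of 6 groups that have one, and replicate 3 lay below replicate 2 in 5 of 8 groups. The SD of the members' mean log2 level, pooled within groups, was 0.18.

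**Figure D1:**
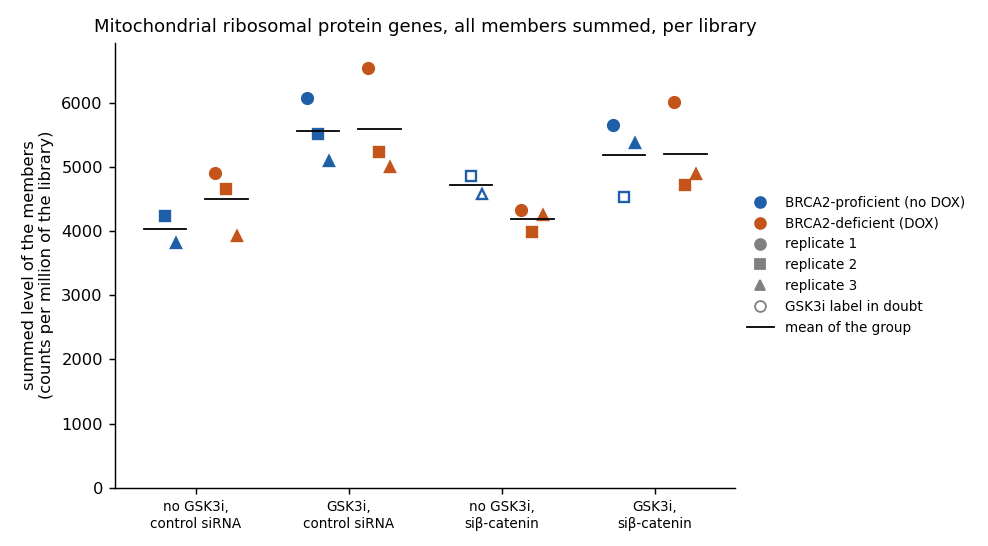
Summed level of the mitochondrial ribosomal protein genes in every library, in CPM of the library, by treatment. Colour marks BRCA2 status, marker shape the replicate number, bars the group mean, and open markers the 3 libraries whose GSK3i label is in doubt. Replicate 1 is the highest point in each of the 6 groups that have one.

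Mitoribosomal protein genes were broadly higher with GSK3i in BRCA2-proficient cells. In the comparison of GSK3i with no GSK3i under the control siRNA, 50 of 75 members rose and 0 fell (DESeq2, adjusted p below 0.05), while 17.7% of all 16771 genes tested rose and 16.5% fell. The median log2 change of the members was 0.59, against -0.00 over all genes, and the members ranged from -0.21 to 1.22. The increase reached both subunits and both evolutionary classes. Of the large-subunit members 21 of 29 with a bacterial homologue and 11 of 20 specific to mitochondria rose, and of the small-subunit members 9 of 15 and 9 of 10. With a further requirement of a log2 change beyond 0.5, 43 members remained, against 11.8% of all genes. In 59 members every GSK3i library lay above both untreated ones, against 31.4% of all genes. Leaving out an untreated library left a single one in that group. The median log2 change was then 0.67 without replicate 2 and 0.48 without replicate 3. The untreated group has no replicate 1, the number with the highest summed level elsewhere, and leaving out GSK3i replicate 1 gave 46 members that rose at a median log2 change of 0.49.

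MRPS12 had the largest change. It encodes the homologue of bacterial S12, a protein of the decoding centre, and lies on chromosome 19 at 39421584 to 39423808 of GRCh37 (ENSG00000128626). Its normalised counts were 2544 and 2081 without GSK3i and 6328, 5783 and 4237 with it. The groups did not overlap, and the log2 change was 1.22 ± 0.18 (SE, adjusted p = 1.38e-10). MRPS30, a protein at the surface of the large subunit, lies on chromosome 5 at 44809049 to 44820530 (ENSG00000112996). It had 1585 and 1659 normalised counts without GSK3i and 3775, 3686 and 3466 with it. All treated libraries exceeded both controls by far more than the spread within groups, and the log2 change was 1.15 ± 0.13 (adjusted p = 6.97e-18). MRPS23, a small-subunit protein specific to mitochondria, lies on the minus strand of chromosome 17 at 55912142 to 55927417 (ENSG00000181610). It had 1653 and 1478 normalised counts without GSK3i and 3643, 3033 and 3095 with it, again without overlap, for a log2 change of 1.04 ± 0.14 (adjusted p = 6.66e-12).

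Promoters of these 3 genes are shown because their transcripts changed most with GSK3i in BRCA2-proficient cells. Each run is the 100 bases before a RefSeq start in the direction of transcription, read from RefSeq and placed in GRCh37 by a single exact match. Where a gene had several starts, the first whose run held the letters marked in capitals was taken, if there was one. The span is chr19:39421494-39421593 for MRPS12 (plus strand), chr5:44808949-44809048 for MRPS30 (plus strand) and chr17:55927406-55927505 for MRPS23 (minus strand). Capitals mark CGGAAG, the letters searched for the binding motif of ETS factors, or their reverse complement. Other forms of that motif were not searched.
MRPS12: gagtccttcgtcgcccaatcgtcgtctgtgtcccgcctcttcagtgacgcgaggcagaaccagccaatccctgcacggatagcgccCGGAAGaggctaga
MRPS30: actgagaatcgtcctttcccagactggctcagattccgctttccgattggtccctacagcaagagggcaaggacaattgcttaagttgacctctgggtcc
MRPS23: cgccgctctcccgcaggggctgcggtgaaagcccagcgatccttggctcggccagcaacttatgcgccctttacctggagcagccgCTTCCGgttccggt

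CGGAAG or its reverse complement began 14 bases before the start in the MRPS12 and MRPS23 runs, on opposite strands, and was not in the MRPS30 run. As runs with these letters were preferred, their presence there is not a result. Motif letters were then searched on both strands of the RefSeq GRCh38.p14 windows from 250 bases before to 50 bases after each start. Of the members, 67 had such windows, 83 in all, and 9 had none. The ETS letters CGGAAG were in 51.8% of the members' windows and in 19.5% of all 35116 windows. The core of the YY1 motif, searched as ATGGCGG, was in 30.1% of the members' windows and in 5.55% of all windows. The centre of the NRF-1 motif, searched as GCATGCG, was in 8.43% against 3.91%, and the E-box CACGTG in 9.64% against 7.26%. No motif contains another, though matches to different ones may lie on overlapping bases. The motif of TCF/LEF factors, the DNA-binding partners of β-catenin, was searched as CTTTGA and was in 4.82% of the members' windows against 12.9% of all windows. The letters were chosen with the results known, and the shares are a description without a test. Of the members with a window, 18 rose in all 3 GSK3i comparisons described here and 21 rose in none of them. CGGAAG was in 6 of these 18 and 14 of these 21, ATGGCGG in 10 and 6, GCATGCG in 1 and 2, CACGTG in 3 and 3, and CTTTGA in 0 and 0.

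In BRCA2-deficient cells GSK3i changed the members in the same direction. With the control siRNA, 26 of 75 members rose and 0 fell, against 13.9% of all 16863 genes that rose and 14.9% that fell. Their median log2 change was 0.44, against 0.02 over all genes, and the range was -0.31 to 1.08. By class, 10 of 29 and 6 of 20 large-subunit members rose, and 4 of 15 and 6 of 10 small-subunit members. With a log2 change beyond 0.5 as well, 23 members remained, against 11.6% of all genes. In 38 members the groups did not overlap, against 21.9% of all genes. The replicate numbers pair these libraries, and with the replicate as a block 47 members rose, against 24.1% of all genes. Without a block, leaving out 1 library gave 11 (untreated replicate 2), 13 (untreated replicate 3), 15 with 1 that fell (GSK3i replicate 1) or 16 (GSK3i replicate 2). Those fits have fewer libraries, and their shares of all genes were not counted.

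MRPS30, with 1465, 1575 and 1487 normalised counts without GSK3i and 3539, 3009 and 3018 with it, led this comparison at a log2 change of 1.08 ± 0.15 (adjusted p = 8.79e-12). MRPS12 had 3298, 3375 and 2462 without and 7847, 5267 and 4875 with GSK3i, for a log2 change of 0.98 ± 0.23 (adjusted p = 2.32e-04). MRPS2, the homologue of bacterial S2 (ENSG00000122140, chromosome 9, 138391830 to 138396519), had 2198, 1905 and 1616 without and 4463, 3335 and 3126 with GSK3i, for a log2 change of 0.93 ± 0.20 (adjusted p = 6.05e-05). None of these groups overlapped, and replicate 1 was the highest GSK3i library for all 3 genes. MRPS2 overlaps exons of 2 genes on the opposite strand, and the strand setting of the counting is not given in the sources used here.

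After siβ-catenin, GSK3i again went with higher levels in BRCA2-deficient cells. AXIN2, whose log2 change with GSK3i was 4.61 ± 0.22 under the control siRNA, still rose in this contrast, at 0.98 ± 0.27 (DESeq2, adjusted p = 0.00258). Here 29 of 75 members rose and 0 fell, against 11.6% of all 17610 genes that rose and 12.9% that fell, with a median log2 change of 0.39 against 0.01 over all genes. By class, 11 of 29 and 6 of 20 large-subunit members and 8 of 15 and 4 of 10 small-subunit members rose. With a log2 change beyond 0.5 as well, 20 members remained, against 8.56% of all genes, and in 44 members the groups did not overlap, against 19.8% of all genes. With the replicate as a block, which the pairing of these libraries allows, 44 rose, against 17.5% of all genes. Leaving out 1 library gave 14 (siβ-catenin replicate 2), 16 (GSK3i with siβ-catenin replicate 1), 18 (siβ-catenin replicate 3) or 19 (siβ-catenin replicate 1) without the block. The shares of all genes were not counted in those smaller fits.

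MRPS12 led again, with 2938, 2340.1 and 2620.4 normalised counts after siβ-catenin alone and 6529, 4898 and 4332 with GSK3i, a log2 change of 1.0 ± 0.19 (adjusted p = 2.17e-06). MRPS23 had 1188, 1020.5 and 755 against 2288, 1609 and 1188, so that the groups met at 1188, with a log2 change of 0.79 ± 0.24 (adjusted p = 0.00782). MRPS30 had 1435, 1488 and 1378 against 2803, 2322 and 2254, with no overlap and a log2 change of 0.78 ± 0.15 (adjusted p = 6.87e-06). In BRCA2-proficient cells after siβ-catenin, the same contrast gave 0 of 75 members with an adjusted p below 0.05 in DESeq2 and 0 in edgeR, and 4 with an unadjusted p below 0.05, at a median log2 change of 0.12. All 3 libraries with a doubtful label are in this contrast, in which 9 of 17010 genes, or 0.0529%, passed in either direction. Without replicate 2 of the GSK3i with siβ-catenin group, 1 member rose and the median was 0.22.

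**Figure D2:**
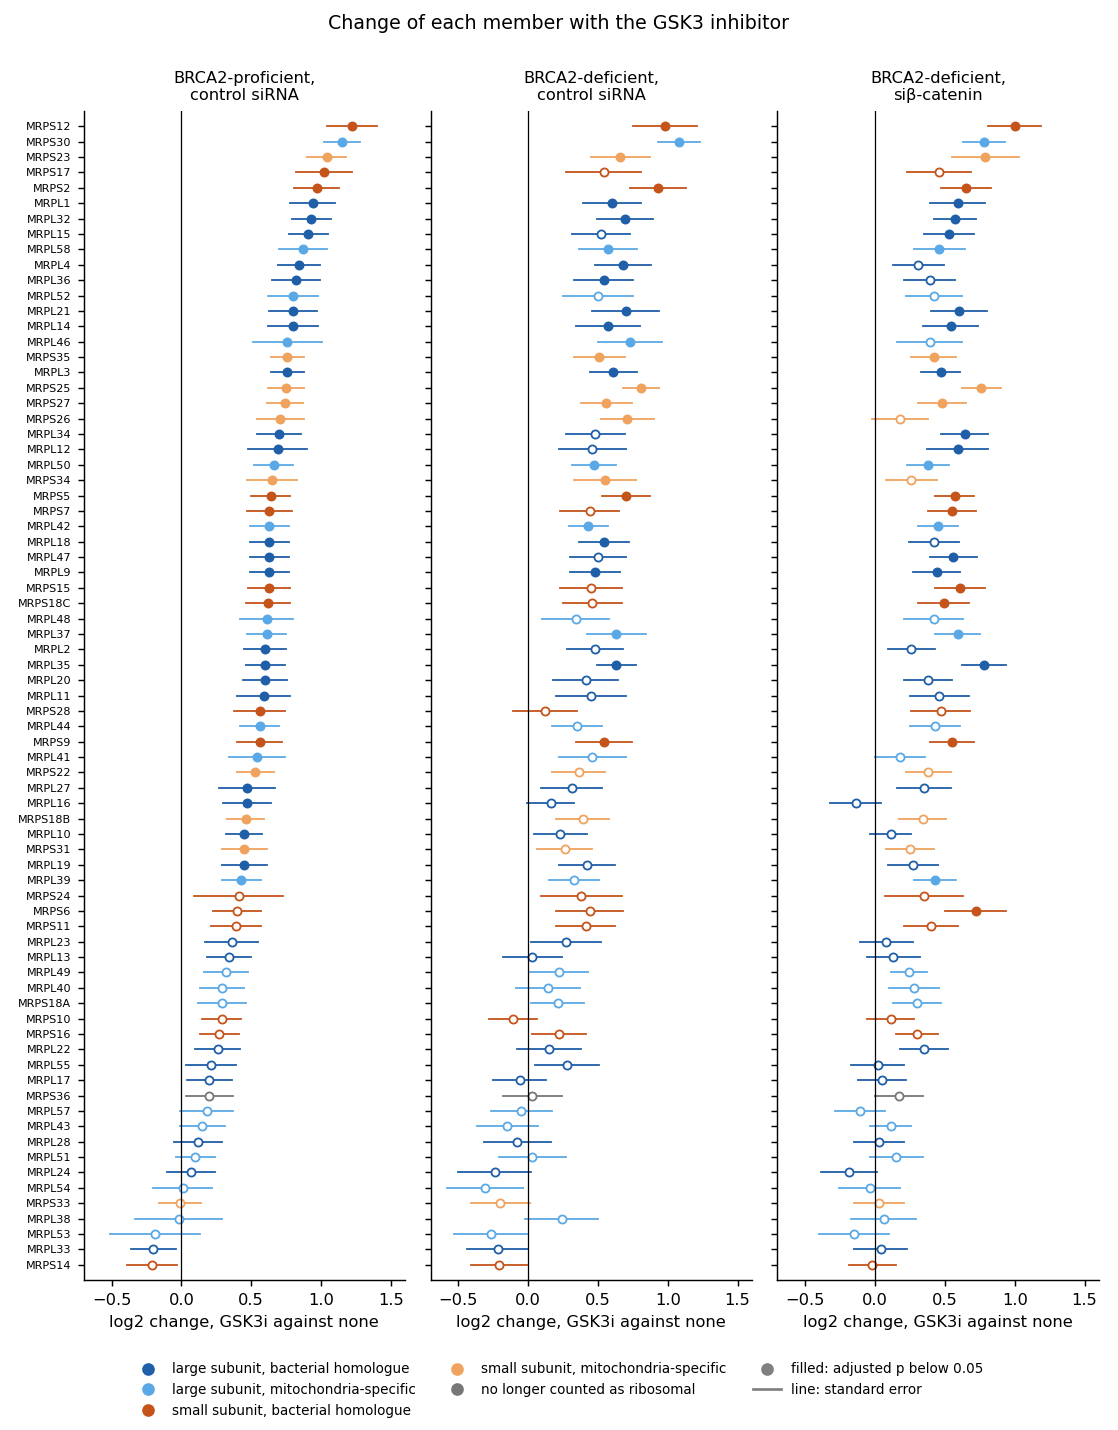
Log2 change with GSK3i against no GSK3i of each of the 75 members tested, in BRCA2-proficient cells with control siRNA, BRCA2-deficient cells with control siRNA and BRCA2-deficient cells after siβ-catenin. Points are DESeq2 estimates, lines 1 standard error, filled points adjusted p below 0.05 and colours the subunit and class. Members are ordered by the first panel, from MRPS12 at 1.22 to MRPS14 at -0.21.

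The 3 comparisons share no library, but same-numbered libraries of different groups deviated together in several comparisons, so they are not fully independent. All 26 members that rose in BRCA2-deficient cells were among the 50 that rose in BRCA2-proficient cells, which is 100% of the first list and 52% of the second. In all, 20 members rose in the 3 comparisons and 24 in none. The same overlaps were not counted over all genes, so they do not set the members apart from other genes. The 20 include ribosomal proteins from both subunits, among them MRPS12, MRPS30, MRPS23, MRPS2, MRPL35 and MRPL42. The 24 include MRPS10, a homologue of bacterial S10, the paralogue MRPS18A, MRPL38, MRPL51, MRPL54, MRPS24 and MRPS36. MRPS14, MRPL33 and MRPL53 had the lowest log2 changes in BRCA2-proficient cells, at -0.21, -0.20 and -0.19, and were singled out here after their values were seen. None of these 3 passed the test there.

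The S18 paralogues differed in whether they passed. MRPS18A had log2 changes of 0.29, 0.21 and 0.30 in the 3 comparisons and passed in none. MRPS18B passed in BRCA2-proficient cells at 0.46 (adjusted p = 0.0016), and its log2 changes were 0.39 (adjusted p = 0.113) and 0.34 (adjusted p = 0.13) in the other two. With the block, MRPS18B also passed in BRCA2-deficient cells with control siRNA (adjusted p = 3.70e-04). MRPS18C passed in BRCA2-proficient cells at 0.62 (adjusted p = 9.67e-04) and in BRCA2-deficient cells after siβ-catenin at 0.49 (adjusted p = 0.0306). Without the block it did not pass in BRCA2-deficient cells with control siRNA. Differences between the paralogues were not tested. MRPL12, the protein of the flexible stalk of the large subunit that also binds mitochondrial RNA polymerase, had 678 and 633 normalised counts without GSK3i and 1251, 1208 and 751 with it in BRCA2-proficient cells. These groups did not overlap, and its log2 change was 0.69 ± 0.21 (adjusted p = 0.00377). In BRCA2-deficient cells with control siRNA it had 857, 861 and 595 against 1361, 933 and 881, a log2 change of 0.46 ± 0.24 (adjusted p = 0.144, and 0.00221 with the block).

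The response to GSK3i was next compared between BRCA2-deficient and BRCA2-proficient cells directly, as an interaction of DOX and GSK3i. With the control siRNA 0 of 75 members passed in DESeq2 and 0 in edgeR, and 1 had an unadjusted p below 0.05, while 0.0345% of all genes passed. The median difference in log2 change, deficient minus proficient, was -0.18. The member of lowest p was MRPS10, at -0.41 ± 0.20 (adjusted p = 1). After siβ-catenin 0 members passed in DESeq2 and 0 in edgeR, 8 had an unadjusted p below 0.05 and 0.439% of all genes passed. The median difference there was 0.27, and MRPL35, a large-subunit protein with a bacterial homologue, was nearest at 0.68 ± 0.28 (adjusted p = 0.2). This interaction uses all 3 libraries with a doubtful label. Without replicate 3 of the proficient siβ-catenin group, which left a single library there, the median difference was 0.35. In 1 model over all 8 groups 2 members passed, MRPL35 with an adjusted p of 0.0464.

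Other nuclear genes of mitochondrial translation were counted in the same GSK3i comparisons with the control siRNA, in which 17.7% of all genes rose without DOX and 13.9% with DOX. Some genes of each list passed and others did not, and the lists were not tested as such. Among translation factors, 11 of 17 rose in BRCA2-proficient and 7 of 17 in BRCA2-deficient cells with control siRNA, with 0 and 1 that fell. LRPPRC, which stabilises mitochondrial mRNAs, had the largest increase, with log2 changes of 0.94 ± 0.13 and 0.90 ± 0.18 (adjusted p = 3.76e-12 and 5.55e-06), and GFM2, a ribosome recycling factor, fell in BRCA2-deficient cells, at -0.52 ± 0.15 (adjusted p = 0.0028). Among mitoribosome assembly factors, 12 and 10 of 25 rose and 1 and 2 fell. RPUSD4, a pseudouridine synthase of the large-subunit RNA, rose most, at 1.07 ± 0.15 and 1.03 ± 0.19, and its relative RPUSD3 fell, at -0.45 ± 0.16 and -0.59 ± 0.21. In the list of mitochondrial aminoacyl-tRNA synthetases 10 and 8 of 22 rose, led by the methionine enzyme MARS2 at 1.4 ± 0.15 and 1.27 ± 0.22. That list includes the amidotransferase subunits GATB, GATC and QRSL1, and GARS1 and KARS1, which also serve the cytosol. Of genes for mtDNA transcription and replication 7 and 4 of 9 rose, led by the helicase TWNK at 0.78 ± 0.16 and 0.79 ± 0.16. Other mitoribosomal proteins that do not carry an MRPL or MRPS name rose in 3 and 1 of 5 cases, the latter close to the share of all genes, with PTCD3 at 0.71 ± 0.13 and 0.63 ± 0.13.

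Against the same shares of all genes, mitochondrial proteases and chaperones rose in 7 of 13 cases in BRCA2-proficient and 7 of 13 in BRCA2-deficient cells, led by the chaperone DNAJA3 at log2 changes of 1.2 ± 0.12 and 1.02 ± 0.14. Stress targets of ATF4, the factor that also answers to mitochondrial stress, rose in 10 and 9 of 14 cases, led by CHAC1 at 1.38 ± 0.22 and 1.15 ± 0.26. The proteins of the cytosolic ribosome rose in 24 of 40 cases in BRCA2-proficient cells, with a median log2 change of 0.34. In BRCA2-deficient cells 0 of 40 passed in DESeq2, in edgeR and at an unadjusted p below 0.05, with a median of 0.14. With the block 8 rose, where 24.1% of all genes did, a larger share. The difference between both cell states passed for 0 of these 40 genes in DESeq2, in edgeR and at an unadjusted p below 0.05, with a median of -0.23. Of the 13 protein genes and 2 rRNA genes encoded in mtDNA, 0 passed in either comparison, by DESeq2, by edgeR or at an unadjusted p below 0.05.

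**Figure D3:**
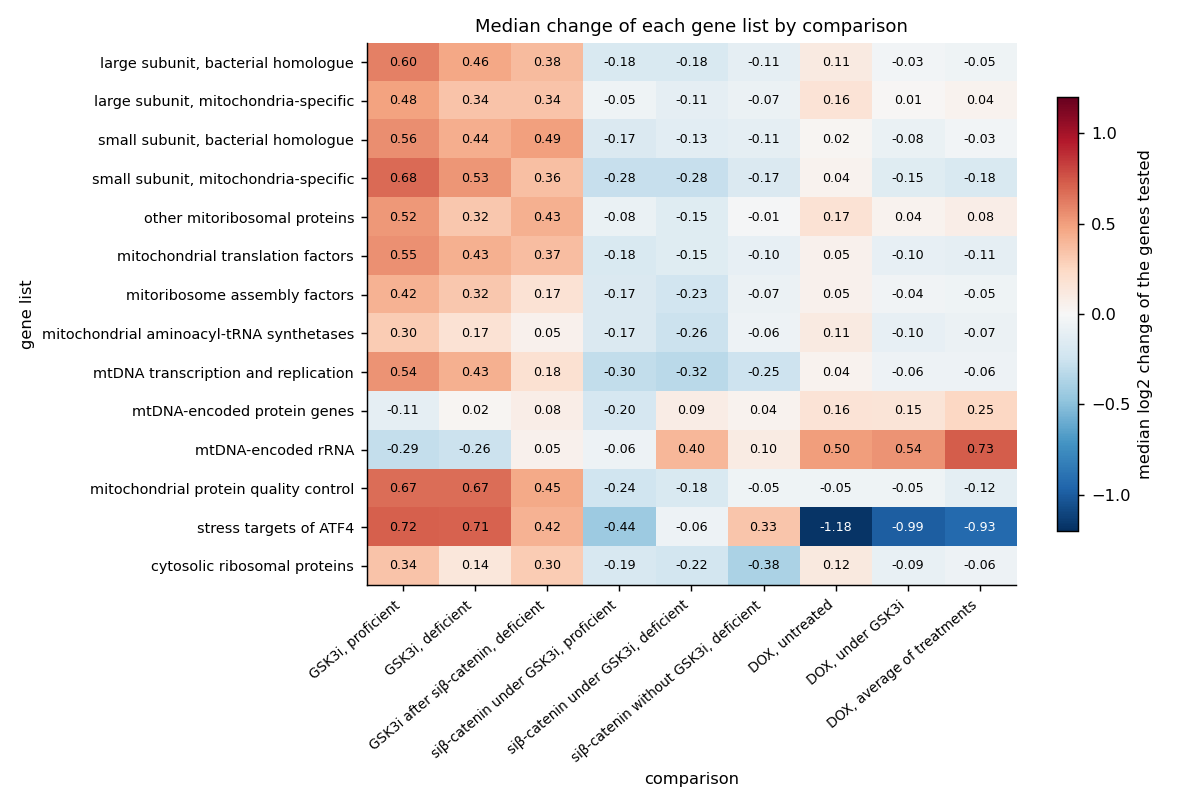
Median log2 change of the genes tested in each list (rows) and comparison (columns), with the value written in each cell and colour from blue (lower) to red (higher). The 4 classes of mitochondrial ribosomal protein genes stand at 0.48 to 0.68 with GSK3i in BRCA2-proficient cells, and the stress targets of ATF4 at -1.18 with DOX in untreated cells.

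The siRNA against β-catenin lowered few members under GSK3i. These comparisons share their GSK3i libraries with those of GSK3i above. In BRCA2-proficient cells 0 of 75 members rose, against 3.34% of all genes, and 2 fell, against 2.32%, with a median log2 change of -0.16. They were MRPS23, at -0.80 ± 0.21 (adjusted p = 0.00703), and MRPS30, at -0.63 ± 0.20 (adjusted p = 0.0341). MRPS23 had 3643, 3033 and 3095 normalised counts with the control siRNA and 2204, 1267 and 2066 with siβ-catenin, and MRPS30 had 3775, 3686 and 3466 against 2697, 1627 and 2627. Neither gene's groups overlapped, and in both the library labelled replicate 2, whose GSK3i label is doubtful, was the lowest. Without it the same genes fell, MRPS23 at -0.59 (adjusted p = 3.62e-04) and MRPS30 at -0.43 (adjusted p = 0.00358), and the median was -0.06. Leaving out GSK3i replicate 1 or 2 left 0 members below the threshold, and leaving out replicate 3 left 1. In edgeR 0 passed.

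In BRCA2-deficient cells under GSK3i, 0 members rose with siβ-catenin, against 3.31% of all genes, and 2 fell, against 3.33%, with a median log2 change of -0.15. MRPS23 had 4045, 2643 and 2741 normalised counts with the control siRNA and 2288, 1609 and 1188 with siβ-catenin, which did not overlap, at -0.90 ± 0.27 (adjusted p = 0.0183). MRPL42, a large-subunit protein specific to mitochondria (ENSG00000198015, chromosome 12, 93861290 to 93909990), had 2144, 2055 and 1930.2 against 1658, 1577 and 1514, at -0.37 ± 0.12 (adjusted p = 0.0357). Its groups did not overlap either. The MRPL42 call was lost in 10 of 11 alternatives and kept only with the block, and that of MRPS23 was lost in 5 of 11. The replicate numbers pair these libraries closely, with correlations of 0.44 to 0.75, and with the block 18 members fell, against 13.3% of all genes, 9 and 3 in the large-subunit classes and 1 and 5 in the small-subunit ones. In edgeR without the block 0 passed. Leaving out GSK3i replicate 1 or 2 or GSK3i with siβ-catenin replicate 2 or 3 gave 0 that fell, and leaving out GSK3i replicate 3 gave 1. Over the fits that each left out 1 library the median ran from -0.28 to 0.02, and it was above 0 without GSK3i replicate 1. The difference between BRCA2-deficient and BRCA2-proficient cells in this effect passed for 0 members in DESeq2, 0 in edgeR and 0 at an unadjusted p below 0.05, with a median of 0.00, against 0.0057% of all genes. This interaction includes the doubtful replicate 2 of the proficient GSK3i with siβ-catenin group, and without it 0 passed, at a median of -0.07. The member of lowest p there was MRPS30 (adjusted p = 1).

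Without GSK3i, siβ-catenin lowered 1 member in BRCA2-deficient cells, against 0.866% of all genes that fell. This was MRPS23, with 2236, 1928 and 1781 normalised counts with the control siRNA and 1188, 1020.5 and 755 with siβ-catenin. The groups stood well apart, at a log2 change of -1.0 ± 0.19 (adjusted p = 1.12e-04). With the block 3 members fell, against 1.86% of all genes, and 3 did without untreated replicate 3. In edgeR 0 passed. In BRCA2-proficient cells 1 member rose, against 1.01% of all genes. It was MRPL32, a large-subunit protein matured by a mitochondrial protease, at 0.59 ± 0.18 (adjusted p = 0.0425), and it is named after its value was seen. Both siβ-catenin libraries of that comparison have a doubtful GSK3i label. In edgeR, with no filter and in 1 model over all 8 groups, 0 rose. Each fit that left out 1 library had a single library in a group. The median log2 change was 0.33 or 0.16 without untreated replicate 2 or 3, and 0.17 or 0.34 without siβ-catenin replicate 2 or 3.

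**Figure D4:**
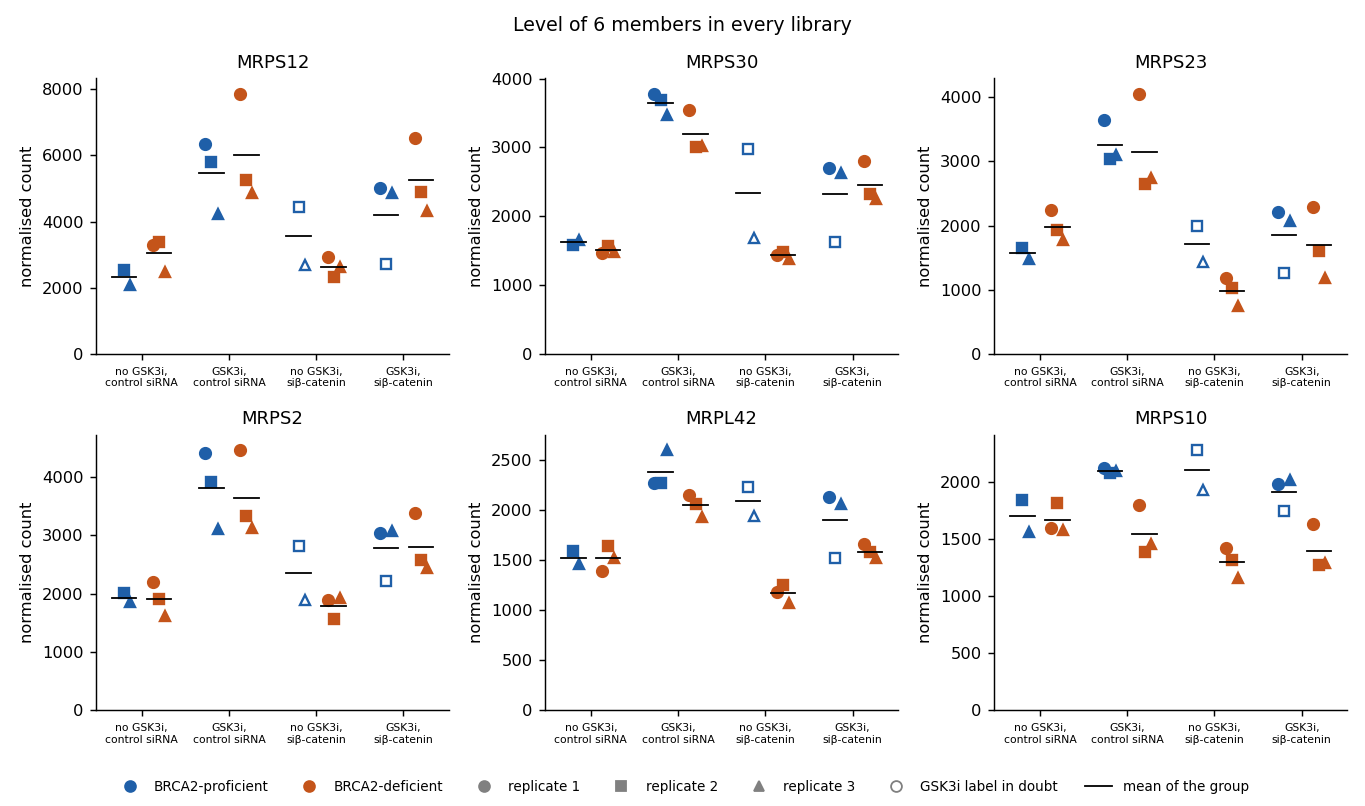
Normalised counts of MRPS12, MRPS30, MRPS23, MRPS2, MRPL42 and MRPS10 in every library, by treatment, on axes from 0. Colour marks BRCA2 status, marker shape the replicate number, bars the group mean and open markers the 3 libraries whose GSK3i label is in doubt. MRPS23 in BRCA2-deficient cells lies at 755 to 1188 after siβ-catenin without GSK3i, below its 1781 to 2236 with the control siRNA.

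DOX with BRCA2 depletion moved the members little and in both directions. Averaged over the 4 treatments and all 22 libraries, 9 of 75 members rose, against 21.3% of all genes, and 9 fell, against 19% of all genes. The median log2 change was -0.04, against 0.02 over all genes, and 0 members passed with a log2 change beyond 0.5, against 11.4% of all genes that rose and 7.22% that fell by this criterion. The 9 that rose all encode large-subunit proteins, 5 of 29 with a bacterial homologue and 4 of 20 specific to mitochondria. Of the 9 that fell, 4 encode large-subunit proteins, 3 with a bacterial homologue and 1 without, and 5 encode small-subunit proteins, 2 and 3. Without the 3 libraries with a doubtful label 3 rose and 6 fell, against 18.2% and 15.6% of all genes. Among control-siRNA libraries alone 0 rose and 1 fell. That fit has fewer libraries, and its share of all genes was not counted. Replicate 1, the highest in summed level within its groups, is in every DOX group but is missing from BRCA2-proficient cells without GSK3i. With the replicate as a block 9 rose and 19 fell, against 22.9% and 22.1% of all genes. The count that rose was 3 without deficient GSK3i replicate 1 or deficient GSK3i with siβ-catenin replicate 1. It was 4 without proficient untreated replicate 2 or 3, proficient GSK3i replicate 3 or deficient untreated replicate 1. Without deficient GSK3i replicate 1, 16 fell.

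The members that fell most on average were MRPL19, MRPS10 and MRPL42. MRPL19, the homologue of bacterial L19 at the interface of the subunits (ENSG00000115364, chromosome 2, 75873909 to 75917977), changed by -0.46 ± 0.11 (adjusted p = 1.12e-04), and -0.39 without the doubtful libraries (adjusted p = 0.00122). Under GSK3i with control siRNA it had 1824, 2122 and 2489 normalised counts without DOX and 1467, 1735 and 1726 with it, which did not overlap. MRPL19 shares exons with GCFC2 in the annotation. MRPS10 (ENSG00000048544, minus strand of chromosome 6, 42174545 to 42185599) changed by -0.41 ± 0.08 (adjusted p = 9.18e-06), and -0.34 without the doubtful libraries (adjusted p = 0.00127). MRPL42 changed by -0.32 ± 0.09 (adjusted p = 0.00179), and -0.21 without them (adjusted p = 0.00837). The largest increases were in MRPL38 at 0.34 ± 0.11 (adjusted p = 0.00481), MRPL54 at 0.32 ± 0.13 (adjusted p = 0.0284) and MRPL27, a protein near the catalytic centre, at 0.30 ± 0.10 (adjusted p = 0.0131). None of these increases passed without the doubtful libraries, where the adjusted p was 0.0597 for MRPL38, 0.0923 for MRPL54 and 0.0638 for MRPL27. MRPL38 had only 67.7 to 136 normalised counts per library.

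Within single treatments the effect was seen in few members, apart from the comparison that rests on doubtful labels. Without GSK3i and with the control siRNA, 0 of 75 members passed in DESeq2 and 0 in edgeR, and 6 had an unadjusted p below 0.05, where 2.93% of all genes rose and 4.31% fell. The median log2 change was 0.11, with 57 members above 0. Without deficient untreated replicate 3, 7 members rose, and without its replicate 1, which the group without DOX lacks, 0 did at a median of 0.05. The share of all genes was not counted in either fit. Under GSK3i with the control siRNA 1 member fell, against 4.07% of all genes, and 0 rose, against 4.54%. The member that fell was MRPS10, with 2123, 2079 and 2101 normalised counts without DOX and 1805, 1387 and 1458 with it. The groups did not overlap, and the log2 change was -0.45 ± 0.14 (adjusted p = 0.0213). With the block, which the pairing allows, MRPL19 fell too (adjusted p = 0.00423), while 8.93% of all genes fell, and in edgeR 0 passed. Without deficient GSK3i replicate 1 the count was 4, and without any of the other 5 libraries it was 0.

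Under GSK3i with siβ-catenin 0 members passed in DESeq2 and 0 in edgeR, and 1 had an unadjusted p below 0.05, against 3.63% of all genes that rose and 4.57% that fell. MRPS10 was at -0.46 ± 0.17 (adjusted p = 0.0742, and 0.0416 with the block). Without proficient replicate 2, whose label is doubtful, or without deficient replicate 1, 2 members fell. With siβ-catenin and no GSK3i, 19 members fell, against 15.7% of all genes, and 1 rose, against 14.5%. The largest decreases were in MRPL19 at -0.89 ± 0.20, MRPL42 at -0.86 ± 0.17 and MRPS23 at -0.82 ± 0.24, and the member that rose was MRPL41 at 0.68 ± 0.20 (adjusted p = 0.00459). Both BRCA2-proficient libraries of this comparison have a doubtful GSK3i label, and MRPS10 had 2282 and 1929 normalised counts in them. The count that fell was 6 without deficient replicate 1, 12 without deficient replicate 2 and 5 with a replicate block, where 5.98% of all genes fell. Leaving out proficient replicate 2 left a single library without DOX, at a median log2 change of -0.17. For MRPS10, BRCA2-deficient untreated cells at 1598, 1817 and 1582 overlapped untreated proficient cells at 1847 and 1561, whereas in the other 3 treatments every DOX library lay below every library without DOX.

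**Figure D5:**
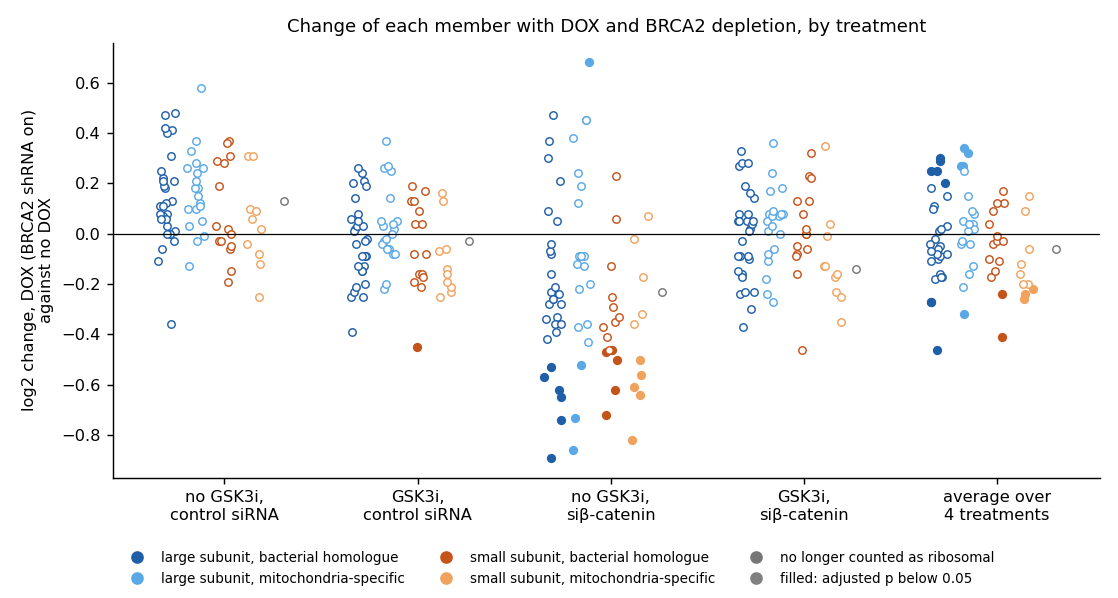
Log2 change with DOX and BRCA2 depletion of each of the 75 members tested, for each treatment and for the average over the 4 treatments, with members grouped and coloured by subunit and class. Filled points have an adjusted p below 0.05 in DESeq2. The members spread around 0 except with siβ-catenin and no GSK3i, where their median is -0.28 and both libraries without DOX have a doubtful label.

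The RNAs of the mitoribosome and the mRNAs it translates come from mtDNA. Averaged over treatments, with the 3 doubtful libraries included, both mtDNA-encoded rRNAs rose with DOX, where 21.3% of all genes did, MT-RNR1 at a log2 change of 0.76 ± 0.17 (adjusted p = 3.23e-05) and MT-RNR2 at 0.70 ± 0.17 (adjusted p = 3.24e-04). Without those libraries the log2 changes were 0.66 ± 0.19 (adjusted p = 0.0021) and 0.63 ± 0.20 (adjusted p = 0.00663). MT-RNR1 had 4452 and 6159 normalised counts in untreated proficient cells and 10476, 4101 and 8977 in untreated deficient cells, so that these groups overlapped. Under GSK3i with siβ-catenin it had 4803, 3377 and 4539.8 without DOX and 6960.3, 8951 and 9698 with DOX, without overlap, the 3377 being the library with a doubtful label. These were poly(A)-selected libraries, so the rRNA counts are of the fraction that was captured. Of 13 mtDNA-encoded protein genes 2 rose on average, a smaller share than among all genes, MT-ND6 at 0.69 ± 0.18 (adjusted p = 6.99e-04) and MT-CYB at 0.42 ± 0.16 (adjusted p = 0.0279), both subunits of the respiratory chain, and the median of the list was 0.25. Without the doubtful libraries MT-ND6 rose (0.66 ± 0.20, adjusted p = 0.00423) and MT-CYB did not pass (adjusted p = 0.0694).

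Among the nuclear genes of the pathway the counts on average with DOX are read against the 21.3% of all genes that rose and the 19% that fell. Here 5 of 17 translation factors fell and 0 rose, led by MTIF2, the initiation factor, at -0.48 ± 0.08. Of the assembly factors 3 of 25 rose, led by MTG1 at 0.29 ± 0.08, and 5 fell, led by GTPBP10 at -0.49 ± 0.08. In the same list of aminoacyl-tRNA synthetases as above 2 of 22 rose and 8 fell, with VARS2 at 0.34 ± 0.09 and NARS2 at -0.56 ± 0.11. Among genes of mtDNA transcription and replication, TFB2M, which starts mtDNA transcription with the polymerase, fell by 1.07 on the log2 scale (SE 0.09, adjusted p = 1.68e-27), as did 1 other of 9, while 1 rose, the polymerase subunit POLG at 0.33 ± 0.06. SPG7, a subunit of an inner-membrane protease, rose by 0.77 ± 0.06, and YME1L1, another such protease, was among 3 of 13 quality-control genes that fell, at -0.42 ± 0.06. Stress targets of ATF4 fell in 12 of 14 cases on average, with a median log2 change of -0.93, and CHAC1 changed by -1.95 ± 0.32 (adjusted p = 1.27e-08). Without the doubtful libraries 11 of 14 fell, at a median of -0.82, and the other genes named in this paragraph passed in the same direction. ATF4 targets also fell in 9 of 14 cases in untreated cells, where 4.31% of all genes fell, with a median of -1.18. Cytosolic ribosomal proteins passed in 0 of 40 cases in DESeq2 and 0 in edgeR without a block, with 3 at an unadjusted p below 0.05. With the block 15 fell, where 22.1% of all genes did. The part of DOX and the part of BRCA2 depletion in these changes cannot be told apart.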

How the data were processed

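Poly(A) RNA of 22 H1299 libraries was sequenced from stranded libraries. By the submitters' processing notes, which differ in some versions from the study's reporting summary, the authors aligned reads with HISAT2 2.0.4 to GRCh37/hg19, removed duplicates with Picard 1.9.2 (SAMtools 1.4) and deposited raw counts of uniquely assigned reads per Ensembl gene from featureCounts 1.5.0. The Ensembl release and strand setting are not given in the sources used here. Of 37908 identifiers 36479 were paired with a symbol through the GRCh37 annotation.

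Comparisons were pairwise DESeq2 1.42.0 Wald tests (R 4.3.3) after the study's design, with Benjamini-Hochberg adjustment over all genes tested and a threshold of 0.05. Genes with under 10 counts in more than 3 of a comparison's libraries were left out, and in other fits those without 10 or more in at least 3 libraries. The average over treatments and the interactions were fitted as terms of additive or crossed models. Values are DESeq2-normalised counts, log2 changes are unshrunken and errors are SE unless named otherwise. Levels between genes were divided by the union of GENCODE exons. Replicates were independent experiments per the study's methods, and within-group pairs differed by more than sampling noise, with a chi-square per gene of 10.8 to 64.4 over 20 pairs. Total counts of 18938266 to 29280122 per library limit the precision of low genes.

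Same-numbered libraries deviated together, with a correlation above 0.1 in each of 3 pairs, in 7 comparisons: DOX under GSK3i with either siRNA, GSK3i in BRCA2-deficient cells with either siRNA, siβ-catenin under GSK3i in both cell states, and siβ-catenin without GSK3i in BRCA2-deficient cells. The blocked count stands beside a result where it differed. The alternatives were edgeR 4.0.16 (quasi-likelihood), TMM factors, no filter, a size criterion of 0.5 in log2, 1 model over 8 groups, the block and leaving out each library. For fits that left out 1 library the shares of all genes were not counted, so their counts do not set the members apart from other genes. Fits of the average without the doubtful libraries, or with control-siRNA libraries only, were chosen after seeing the data. The fitting was tested on simulated data.

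The members and gene lists were chosen with earlier results of these data known. Named members were, per comparison of DOX, of GSK3i and of siβ-catenin under GSK3i, the 3 largest increases and the 3 largest decreases that passed, the 5 of highest and the 5 of lowest level, the member of lowest p per interaction, and MRPL12, MRPS12, MRPS30 and the MRPS18 paralogues for their roles. From other lists the gene with the largest change in each direction was named, except where it is not reported here.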

Additional observations from a re-analysis of the deposited data

How the results depend on the processing

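No called value changed sign under an alternative, but medians of comparisons with few calls did when 1 library was left out. They ran from -0.28 to 0.02 for siβ-catenin under GSK3i in cells with DOX, from -0.18 to 0.06 for DOX under GSK3i, from -0.16 to 0.08 for DOX under GSK3i with siβ-catenin, and from -0.13 to 0.17 for the interaction of DOX and siβ-catenin under GSK3i. The median of the DOX average was 0.01 without the doubtful libraries and 0.05 with control-siRNA libraries only. The replicate block gave 47 members that rose with GSK3i in BRCA2-deficient cells and 44 after siβ-catenin, 18 that fell with siβ-catenin under GSK3i in BRCA2-deficient cells and 3 without GSK3i, 2 that fell with DOX under GSK3i, 1 with DOX under GSK3i and siβ-catenin, and 19 on average. In the remaining paired comparison, that of siβ-catenin in GSK3i-treated BRCA2-proficient cells, it left both calls as they were. In comparisons whose numbers do not pair the libraries it gave 0 that rose and 5 that fell with DOX after siβ-catenin, and 0 that rose with siβ-catenin in BRCA2-proficient cells without GSK3i. edgeR gave 0 for DOX under GSK3i, for siβ-catenin under GSK3i in both cell states and without GSK3i in both. With the size criterion 0 members fell with DOX under GSK3i, 0 rose and 0 fell on average, and 1 fell with siβ-catenin under GSK3i in BRCA2-deficient cells. In that comparison TMM factors, no filter and 1 model over all groups each gave 1. TMM factors gave 2 that rose with DOX after siβ-catenin. No filter and 1 model each gave 0 for siβ-catenin in BRCA2-proficient cells without GSK3i, and 1 model gave 1 that fell with DOX under GSK3i and siβ-catenin, and 2 that passed in the interaction after siβ-catenin. The average of DOX gave 3 that rose without the doubtful libraries, and 0 that rose and 1 that fell with control-siRNA libraries only. The cause of these differences was not tested.

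Leaving out 1 library at a time, the members that rose with GSK3i numbered 29 to 55 in BRCA2-proficient cells, 11 to 26 in BRCA2-deficient cells (with 0 to 1 that fell, and medians of 0.25 to 0.54), 14 to 28 in BRCA2-deficient and 0 to 1 in BRCA2-proficient cells after siβ-catenin. With siβ-catenin under GSK3i 0 to 2 fell in cells without DOX and 0 to 3 in cells with DOX. With siβ-catenin and no GSK3i 1 to 3 fell in cells with DOX. In cells without DOX those fits had a single library in a group, at medians of 0.16 to 0.34. With DOX 0 to 7 rose in untreated cells, 0 to 4 fell under GSK3i, 0 to 2 fell under GSK3i with siβ-catenin, 0 to 1 rose and 6 to 21 fell after siβ-catenin, and 3 to 10 rose and 7 to 16 fell on average. In the interaction after siβ-catenin the medians ran from 0.09 to 0.36. Of 414 recomputed values of single genes, 365 kept their direction and their side of the threshold, 48 lost the threshold and 1 gained it. At these depths MRPL30 could not be tested.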
